A study of Rattus norvegicus with 12 samples.

Results

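The growth hormone receptor and Igf1 axis was followed in rat liver through chemically induced hepatitis, cirrhosis and hepatocellular carcinoma (HCC). Its members were 10 genes taken by symbol: the hormone gene Igf1, its carriers Igfals and Igfbp3, the receptors Ghr, Igf1r and Igf2r, the signal carrier Stat5b, the feedback inhibitors Socs2 and Cish, and the repressor Bcl6. The 10 genes were chosen with earlier results of these data known. Their share of calls beside that of all probe sets is therefore a description and not a test. Every probe set that the array's annotation gave to exactly 1 of these symbols was taken, whatever its values. This gave 17 of the 31042 probe sets tested, and 10 of 14217 named genes. Of the members, Igf1 had 3 probe sets, Ghr, Igfbp3, Igf1r, Igf2r and Cish had 2 each, and the other four had 1 each.

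Growth hormone is released by the pituitary and binds its receptor, Ghr, on hepatocytes, where the kinase Jak2 phosphorylates the transcription factor Stat5b. Stat5b then drives transcription of Igf1 and Igfals and of the inhibitors Socs2 and Cish, which damp the receptor's signal, while Bcl6 is a repressor known to compete with Stat5b on liver genes. The liver is the main source of Igf1 in blood, where it circulates in a complex with the acid labile subunit (Igfals) and the binding protein Igfbp3. Igf1 acts through Igf1r, and Igf2r binds and clears the related hormone Igf2.

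RNA of 12 tissue samples from male adult Sprague-Dawley rats was measured on 12 single-colour Rat 230 2.0 arrays, 3 for each of 4 groups. Control rats received distilled water. The other rats received diethylnitrosamine (DEN), a carcinogen activated in hepatocytes, by weekly intraperitoneal dose of 70 mg/kg for 10 weeks, and were killed at week 5 (hepatitis), weeks 13 to 14 (cirrhosis) or weeks 23 to 24 (HCC). The labels do not say whether weeks run from the start or the end of the dosing and give no time for the controls, so stage, time and exposure cannot be told apart. The series text speaks of HCC tissue for the last group, whereas the label for tissue reads liver on each of the 12. The labels name 12 rats killed per time point and do not say from which of them the arrays come. The p-values therefore describe the spread between these 12 samples, which may be technical.

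Values were linear intensities, with array medians of 28.69 to 30.94, and a similar share of each array, 33.9% to 35.8%, fell under 16. Differences are given on the log2(intensity + 16) scale, which understates those of dim probe sets, and a probe set was called where its limma p, adjusted by Benjamini-Hochberg across the 31042 probe sets, was under 0.05. The HCC arrays stood apart: on the first principal component, with 58.6% of the variance, they scored 86.8, 45.1 and 96.1 against -29.5 to -12.0 for the other 9. Their 3′ over 5′ log2 ratio of Gapdh probe sets was also higher, 1.36 to 3.2 against 0.381 to 1.03 on the other 9 arrays. The Y-linked Eif2s3y measured 124 to 349 on the 12 arrays and all 4 probe sets of Xist were under 16, as in male tissue. Obp3, a lipocalin known as an abundant product of adult male rat liver, measured 9.92 to 12.6 in the 3 control livers labelled adult male. On these 3 arrays Cyp2c11 measured 1861 to 3551, Cyp2c12 4204 to 5159 and Cyp2c7 168 to 1658. Growth hormone is known to control these genes as well in rat liver. One control liver, replicate 2, carried skeletal muscle transcripts, at a sum of 1874 over 4 markers against 38.8 and 58.4 on the other 2 control arrays.

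In HCC the receptor Ghr, the hormone gene Igf1 and its carrier Igfals were called lower than in control, hepatitis and cirrhosis liver. In cirrhosis none of them was called lower than in control. For Igf1 1370333_a_at and Igfals, HCC replicate 2 lay within the hepatitis range. Against control, 8 of the 17 probe sets were called in HCC, 47.1% of them, where 29.8% of all probe sets were called. Of these, 7 were lower (14.1% of all probe sets were called lower) and 1 was higher (15.7% of all). The lower ones were both probe sets of Ghr, all 3 of Igf1 and the single ones of Igfals and Stat5b, and the higher one belonged to Igf2r. Against cirrhosis, 8 of 17 were called where 32.2% of all were, 7 lower (14.8% of all) and 1 higher (17.5% of all). Against hepatitis, 7 of 17 were called where 29% of all were, 6 lower (13.4% of all) and 1 higher (15.5% of all). The groups did not overlap for 8 of 17 in HCC against control (40.1% of all probe sets), 9 of 17 against cirrhosis (43.5% of all) and 5 of 17 against hepatitis (37.4% of all). In such bulk samples fewer cells of a type and less RNA per cell cannot be told apart. These comparisons share the 3 HCC arrays, and those with control share the 3 control arrays.

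At the earlier stages few members were called. In hepatitis 0 of 17 were called against control in limma, where 2.95% of all probe sets were called. In cirrhosis 1 of 17 was called, a probe set of Ghr that was higher, where 3.62% of all were called and 1.59% were called higher. The 3 arrays of a stage and the 3 controls did not overlap for 8 of 17 in hepatitis (27.5% of all probe sets) and for 8 of 17 in cirrhosis (34.2% of all). Between cirrhosis and hepatitis 0 of 17 were called in limma, where 0.651% of all were called. The 3 cirrhosis arrays lay wholly above the 3 hepatitis arrays for 9 probe sets (12.2% of all) and wholly below for 4 (11.3% of all), so 13 of 17 did not overlap, where 23.5% of all probe sets did not. A moderated F test over the 4 groups called 9 of 17, from 6 genes, where 33.2% of all probe sets were called. The median log2 difference of the 17 from control was -0.21 in hepatitis, -0.06 in cirrhosis and -0.16 in HCC, and that of all probe sets was between -0.01 and 0.01 in each.

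**Figure D1:**
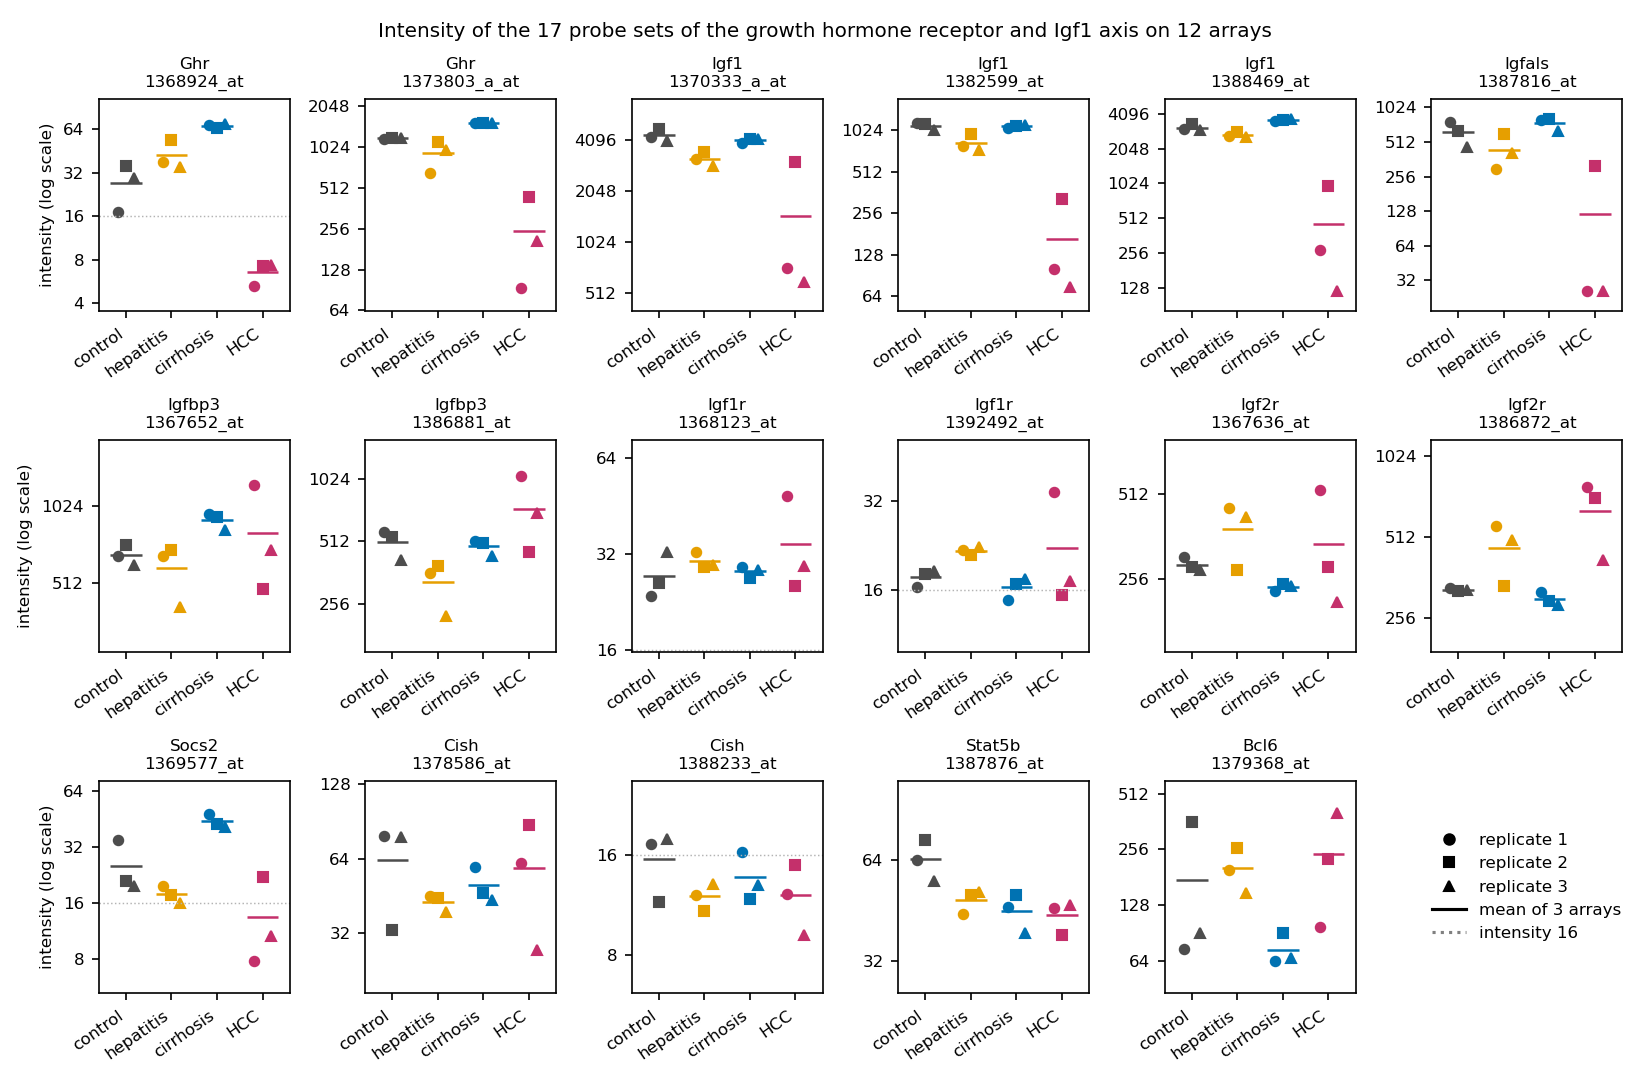
Intensity (log axis) of each of the 17 probe sets on the 12 arrays, by stage from control to HCC, with a line at the mean of the 3 arrays and a dotted line at 16. The 3 Igf1 probe sets, Igfals and both Ghr probe sets lie lowest in HCC, and Ghr 1368924_at and Socs2 lie highest in cirrhosis, at 64.6 to 68.9 and 40.8 to 48.3.

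The promoter windows of Igf1 and Igfals are printed because both fell in HCC, and that of Cish, a textbook target of Stat5b, because it was called in no comparison. Each covers 250 bases before to 50 after the gene's start in RefSeq (build GRCr8, plus strand, 5′ to 3′), and capitals mark the palindrome TTCNNNGAA, the core of Stat5-type elements, which reads the same on both strands.
Cish, chr8:116850719-116851018: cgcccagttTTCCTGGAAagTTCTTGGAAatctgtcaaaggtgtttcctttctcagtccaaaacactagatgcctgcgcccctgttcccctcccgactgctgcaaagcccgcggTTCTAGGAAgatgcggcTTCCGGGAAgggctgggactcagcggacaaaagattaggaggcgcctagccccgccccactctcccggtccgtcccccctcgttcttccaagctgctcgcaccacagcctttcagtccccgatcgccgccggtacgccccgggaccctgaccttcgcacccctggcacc
Igf1, chr7:24172282-24172581: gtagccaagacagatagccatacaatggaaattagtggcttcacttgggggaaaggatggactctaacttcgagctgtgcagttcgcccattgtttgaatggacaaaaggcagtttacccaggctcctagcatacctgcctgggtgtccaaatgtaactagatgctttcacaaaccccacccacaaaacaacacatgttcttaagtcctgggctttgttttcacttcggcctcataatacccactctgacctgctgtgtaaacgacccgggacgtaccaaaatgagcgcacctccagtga
Igfals, chr10:14403600-14403899: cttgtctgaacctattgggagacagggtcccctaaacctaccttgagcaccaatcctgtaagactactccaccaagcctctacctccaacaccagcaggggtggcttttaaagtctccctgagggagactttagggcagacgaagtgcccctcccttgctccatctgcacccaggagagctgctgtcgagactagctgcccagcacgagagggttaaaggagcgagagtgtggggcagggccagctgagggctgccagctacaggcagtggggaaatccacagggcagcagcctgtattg
The Cish window held 4 copies, which begin 241, 230, 136 and 119 bases before the start, and none overlapped another. The windows of 9 of the 10 members were in the table, and 1 of these, Cish, held the palindrome. Among 33469 windows of the same length 2970 held at least 1 copy (8.87%), and 2 held 4 or more (0.00598%). Socs2 was not matched. A match is only a run of letters, and its absence says only that these letters are not in the window.

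Igf1 encodes the secreted growth factor of the axis. Its probe set 1370333_a_at measured 4252, 4741 and 3999 in control liver, 3130, 3477 and 2877 in hepatitis, 3917, 4120 and 4129 in cirrhosis, and 711.5, 3033 and 595 in HCC. The second HCC array lay within the hepatitis range and the other 2 far below every other array. In limma the difference of HCC from control was -1.97 ± 0.48 (log2, SE; adjusted p = 0.0125), a 3.92-fold lower level. The other 2 probe sets fell further. Probe set 1388469_at measured 271, 976 and 119 in HCC against 3017, 3357 and 2951 in control, a difference of -3.21 ± 0.54 (adjusted p = 0.00207, limma), and 1382599_at measured 102, 326 and 74.5 in HCC against 1157, 1143 and 1030 in control, a difference of -2.87 ± 0.39 (adjusted p = 0.000664, limma). For both of these every HCC array lay below all 9 others. The probe sets of Igf1 disagreed on the second HCC array, where 1370333_a_at stood 0.51 below the control mean on the log2 scale, and 1382599_at and 1388469_at stood 1.72 and 1.65 below it. The HCC call of 1370333_a_at against hepatitis, at -1.52 (adjusted p = 0.0398, limma), had overlapping arrays and was lost without any 1 of the control, hepatitis or cirrhosis arrays and without HCC replicate 1 or 3 (adjusted p 0.0558 to 0.13).

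In hepatitis the 3 arrays of each Igf1 probe set lay below the 3 controls. The differences were -0.45 for 1370333_a_at, -0.42 for 1382599_at and -0.20 for 1388469_at, with adjusted p between 0.721 and 0.938 in limma, so none was called. That of 1370333_a_at was called without HCC replicate 2 (adjusted p = 0.0296). Those of 1370333_a_at and 1382599_at were called with all 3 HCC arrays left out (adjusted p = 0.0148 and 0.0305). The spread in the fit is shared by the groups, and its part in these calls was not tested. In cirrhosis the 3 probe sets differed from control by -0.09, -0.02 and 0.22 in the order 1370333_a_at, 1382599_at and 1388469_at, and none was called. That of 1388469_at was called higher with the HCC arrays left out (adjusted p = 0.0467) and with only the control and cirrhosis arrays fitted (adjusted p = 0.0477).

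Igfals encodes the acid labile subunit, a leucine-rich glycoprotein made in hepatocytes that holds Igf1 and Igfbp3 in a long-lived complex. It measured 766, 637 and 467 in control liver, 299, 607 and 414 in hepatitis, 802, 810 and 643 in cirrhosis, and 25.8, 314 and 25.9 in HCC. Replicates 1 and 3 of HCC lay far below all other arrays and replicate 2 lay within the hepatitis range. Igfals was 7.53-fold lower in HCC than in control, at -2.91 ± 0.68 (log2, SE; adjusted p = 0.0105, limma), and the difference from cirrhosis was -3.20 (adjusted p = 0.00603). The difference of HCC from hepatitis, -2.40 (adjusted p = 0.026), was lost without hepatitis replicate 2 or 3 or HCC replicate 1 or 3 (adjusted p 0.0611 to 0.0892). Igfals did not pass the test in hepatitis or cirrhosis against control, with 95% intervals from -2.05 to 1.02 and from -1.25 to 1.82 on the log2 scale.

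**Figure D2:**
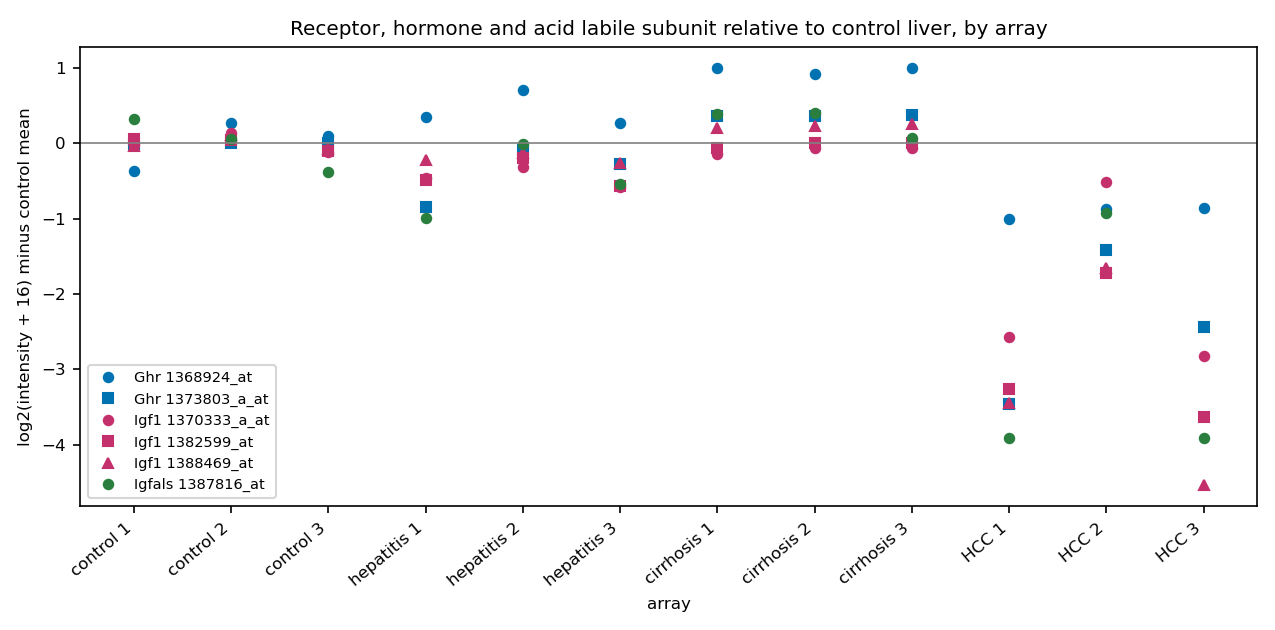
Each array's log2(intensity + 16) minus the control mean of the same probe set, for the probe sets of Ghr, Igf1 and Igfals, array by array. HCC replicate 2 is nearer to control than replicates 1 and 3 for Igf1, Igfals and Ghr 1373803_a_at, while Ghr 1368924_at is 0.87 to 1.00 below control on all 3 HCC arrays.

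Igfbp3 carries most of the Igf1 in blood and, in rat liver, is known as a product of non-parenchymal cells. Its probe set 1367652_at measured 654, 723 and 600 in control, 655, 690 and 410 in hepatitis, 954, 926 and 827 in cirrhosis, and 1240, 484 and 691 in HCC. The cirrhosis arrays lay above all control arrays, and the HCC arrays spread from below the lowest control array to above the highest cirrhosis array. Its probe set 1386881_at measured 569, 536 and 414 in control, 361, 389 and 224 in hepatitis, 513, 501 and 436 in cirrhosis, and 1049, 453 and 700 in HCC. Only this probe set was called, and only in HCC against hepatitis, at 1.10 ± 0.29 (log2, SE; adjusted p = 0.0179, limma), a call lost without hepatitis replicate 3 (adjusted p = 0.0615). In HCC against control the differences were 0.45 for 1386881_at (adjusted p = 0.28) and 0.18 for 1367652_at (adjusted p = 0.711). Without HCC replicate 2 that of 1386881_at was called against control (0.75, adjusted p = 0.0447) and against cirrhosis (0.81, adjusted p = 0.0319). So Igfals and Igf1 fell in HCC while Igfbp3, the third part of their complex, was called lower in no comparison.

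Ghr encodes the growth hormone receptor. Its brighter probe set, 1373803_a_at, measured 1179, 1197 and 1197 in control, 656, 1121 and 980 in hepatitis, 1540, 1532 and 1546 in cirrhosis, and 94.4, 437 and 208 in HCC. All HCC arrays lay below all others, all cirrhosis arrays above all others, and all hepatitis arrays below the controls. HCC was 5.4-fold below control, at -2.43 ± 0.41 (log2, SE; adjusted p = 0.00196, limma), and -2.80 below cirrhosis (adjusted p = 0.000808). The differences of hepatitis and cirrhosis from control, -0.40 and 0.37, were not called (adjusted p = 0.758 and 0.782), but that of cirrhosis was called when only the control and cirrhosis arrays were fitted (adjusted p = 0.00179).

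The dimmer Ghr probe set, 1368924_at, measured 16.97, 35.4 and 29.3 in control, 38.1, 53.5 and 35.2 in hepatitis, 68.6, 64.6 and 68.9 in cirrhosis, and 5.26, 7.19 and 7.33 in HCC. It was called higher in cirrhosis than in control, at 0.97 ± 0.16 (log2, SE; adjusted p = 0.0149, limma), and lower in HCC than in control, at -0.91 ± 0.16 (adjusted p = 0.00222). The cirrhosis call was lost without any 1 of the 3 cirrhosis arrays (adjusted p 0.0602 to 0.0626). With 1 in place of 16 as the added constant the HCC difference was -1.85, since all 3 HCC values were under 16. In cirrhosis both Ghr probe sets stood above all control arrays, and in hepatitis they pointed opposite ways, 0.44 for 1368924_at and -0.40 for 1373803_a_at, neither called.

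Igf1r encodes the receptor tyrosine kinase through which Igf1 signals, and adult hepatocytes are known to carry little of it. Probe set 1368123_at measured 23.6 to 32.5 in control, 29.2 to 32.4 in hepatitis, 26.9 to 29.2 in cirrhosis and 25.5 to 48.6 in HCC. Probe set 1392492_at measured 34.3, 15.4 and 17.2 in HCC against 16.4, 18.1 and 18.6 in control, so that only HCC replicate 1 stood out. Neither was called in any comparison, and the 95% intervals of HCC minus control ran from -0.12 to 0.52 and from -0.17 to 0.48 (log2). Without HCC replicate 1, 1392492_at was called lower in HCC than in hepatitis, at -0.23 (adjusted p = 0.0112, limma).

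Igf2r encodes the mannose 6-phosphate receptor, which carries Igf2 to lysosomes. Probe set 1386872_at measured 330, 322 and 324 in control, 560, 337 and 497 in hepatitis, 319, 295 and 286 in cirrhosis, and 781, 712 and 420 in HCC. Every HCC array lay above all control and cirrhosis arrays, and the call was 0.89 ± 0.23 against control (log2, SE; adjusted p = 0.0152, limma) and 1.00 ± 0.23 against cirrhosis (adjusted p = 0.00786). The other probe set, 1367636_at, measured 527, 284 and 213 in HCC against 306, 283 and 276 in control, with overlapping arrays and a difference of 0.14 that was not called (adjusted p = 0.769). So the higher level in HCC rested on 1 of the 2 probe sets, and with the mean of both the difference was 0.51 from control (adjusted p = 0.125) and 0.69 from cirrhosis (adjusted p = 0.0476), the second of them called. In HCC against hepatitis neither was called with all arrays. Without HCC replicate 3 1386872_at was called higher (adjusted p = 0.0185), and without HCC replicate 1 1367636_at was called lower (adjusted p = 0.0471).

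**Figure D3:**
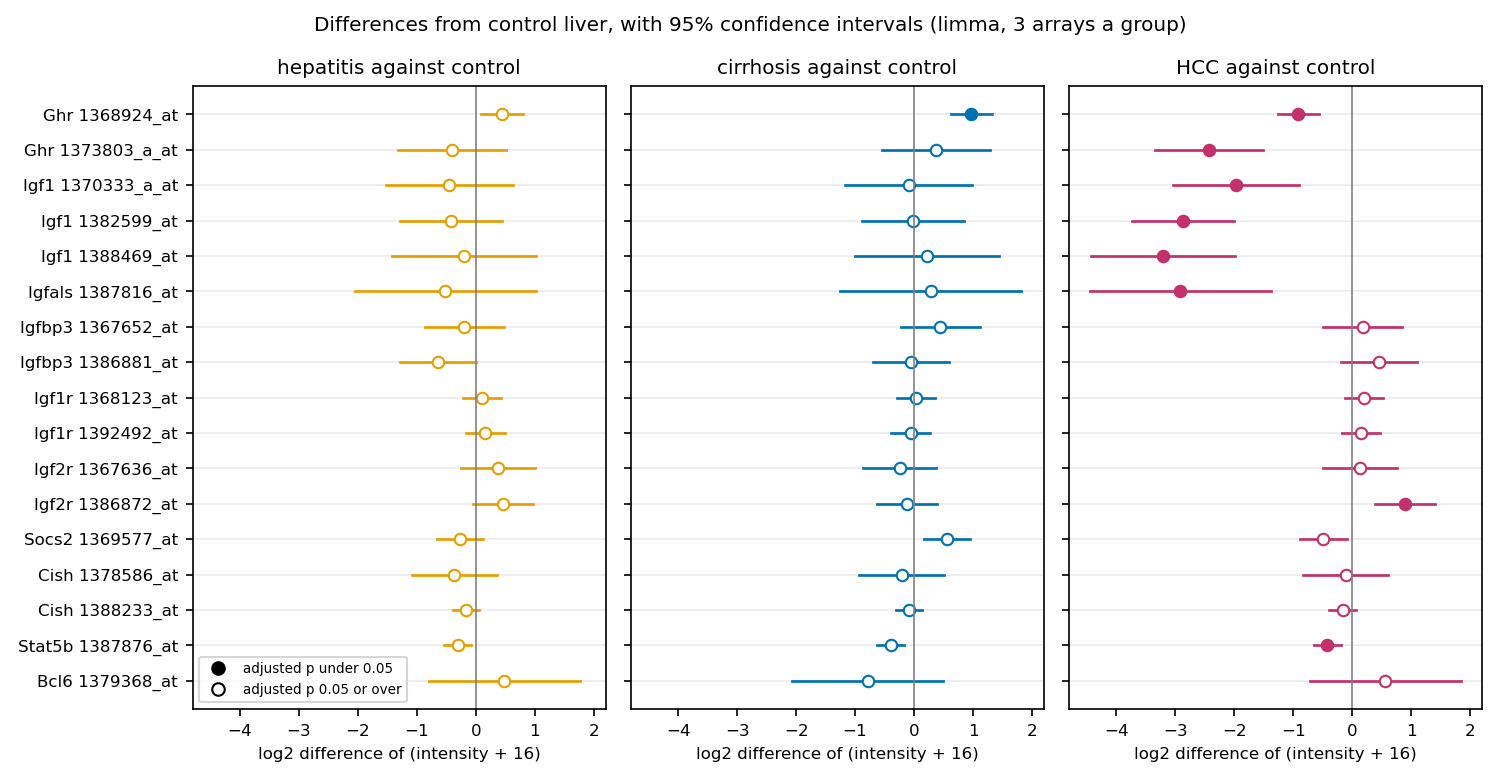
Log2 difference from control of each probe set in hepatitis, cirrhosis and HCC, with its 95% confidence interval in limma (3 arrays a group), filled where the adjusted p was under 0.05. The called HCC differences run from -3.21 for Igf1 1388469_at to 0.89 for Igf2r 1386872_at, and in cirrhosis Ghr 1368924_at, at 0.97, is the single filled point.

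Stat5b, the transcription factor that carries the growth hormone signal to male liver genes, measured 64.4, 73.8 and 55.6 in control, 44.2, 50.6 and 51.6 in hepatitis, 46.6, 50.5 and 38.8 in cirrhosis, and 46.1, 38.4 and 47.2 in HCC. All 9 arrays of DEN-treated rats lay below all 3 controls. The HCC difference was called, at -0.43 ± 0.10 (log2, SE; adjusted p = 0.0116, limma), and those of cirrhosis (-0.39, adjusted p = 0.0699) and hepatitis (-0.31, adjusted p = 0.159) were not. No difference between the 3 stages was called, with adjusted p from 0.457 to 0.914. With 1 weight per group in the fit the cirrhosis difference was called (adjusted p = 0.0186) and the HCC difference was not (adjusted p = 0.0745), and the cirrhosis difference was also called with the HCC arrays left out (adjusted p = 0.0457).

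Socs2, an inhibitor that growth hormone induces and that limits body growth in mice, measured 34.7, 21.0 and 19.6 in control, 19.7, 17.5 and 16.04 in hepatitis, 48.3, 42.6 and 40.8 in cirrhosis, and 7.82, 22.0 and 10.6 in HCC. The cirrhosis arrays lay above all others. HCC differed from cirrhosis by -1.05 ± 0.18 (log2, SE; adjusted p = 0.00167, limma), or by -1.75 with an added constant of 1. The differences of cirrhosis from control (0.56, adjusted p = 0.129), of cirrhosis from hepatitis (0.83, adjusted p = 0.0822) and of HCC from control (-0.49, adjusted p = 0.0621) were not called. All 3 were called without HCC replicate 2 (adjusted p = 0.0406, 0.022 and 0.00503), as was that of HCC from hepatitis (-0.42, adjusted p = 0.048). The first 2 were also called with all HCC arrays left out (adjusted p = 0.0327 and 0.0194).

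Cish, the first inhibitor of this family to be described and the member with 4 palindromes in its promoter window, was called in no comparison. Probe set 1378586_at measured 79.2, 33.1 and 77.8 in control, 45.3, 44.6 and 38.9 in hepatitis, 59.3, 46.6 and 43.8 in cirrhosis, and 61.5, 87.6 and 27.6 in HCC. Controls and HCC arrays each spread over more than the range of the other 2 groups, and the 95% interval of HCC minus control ran from -0.83 to 0.61 (log2). Probe set 1388233_at was dim, at 9.22 to 17.9 on the 12 arrays, and was called in no comparison.

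Bcl6, a zinc finger repressor that growth hormone is known to lower in liver, measured 74.0, 359 and 90.1 in control, 199, 262 and 149 in hepatitis, 63.97, 90.0 and 66.5 in cirrhosis, and 97.3, 226 and 400 in HCC. Cirrhosis was lowest and tightest, with all 3 arrays below all hepatitis and HCC arrays, and control replicate 2, the array with muscle transcripts, lay above all but 1 of the 12. No difference was called. HCC minus cirrhosis was 1.34 (adjusted p = 0.104, limma), and it was called without control replicate 2 (adjusted p = 0.0391) or without HCC replicate 1 (1.84, adjusted p = 0.0332). Cirrhosis minus hepatitis was -1.27 (adjusted p = 0.483). Cirrhosis was thus the stage with the highest mean of Ghr and Socs2 and the lowest mean of Bcl6 among the 4 groups, although of these differences from control only that of Ghr 1368924_at was called.

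The order of group means was cirrhosis, control, hepatitis, HCC for Ghr 1373803_a_at, Igf1 1388469_at, Igfals and Socs2, and control, cirrhosis, hepatitis, HCC for the other 2 Igf1 probe sets. For these 6, no step between control, cirrhosis and hepatitis was called in limma over all 12 arrays, and the step between HCC and its neighbour, hepatitis, was called for 5, all but Socs2. For Ghr 1368924_at the order was cirrhosis, hepatitis, control, HCC, with only the step between HCC and control called, and no neighbouring step was called for the other 10 probe sets. When each fit held only the 6 arrays compared, 4 of the 8 calls in HCC against control were lost in limma, those of Igf1 1370333_a_at (adjusted p = 0.0946), Igfals (adjusted p = 0.0795), Igf2r 1386872_at (adjusted p = 0.0591) and Stat5b (adjusted p = 0.0527). Over all 31042 probe sets these fits called 4994 in HCC against control instead of 9237, and 4949 in cirrhosis against control instead of 1125. In cirrhosis against control they called 6 of 17 in limma. Added were Ghr 1373803_a_at (0.37, adjusted p = 0.00179), Igfbp3 1367652_at (0.44, adjusted p = 0.0189) and Igf2r 1367636_at (-0.24, adjusted p = 0.0256). Socs2 (0.56, adjusted p = 0.0441) and Igf1 1388469_at (0.22, adjusted p = 0.0477) were also added.

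Marker genes of hepatocytes and other cells were measured on the same arrays, 1 probe set per gene, and are read against the 37.4% of 14217 genes called in HCC against control. The summed intensity of 9 hepatocyte markers was 44360, 59890 and 40640 in HCC against 61250 to 62540 in control. Of these 9, 3 were called lower (Ttr, Tat and Cyp2e1), none was under 16 on all arrays of a group, and Hnf4a, a hepatocyte transcription factor, was 0.04 above control and not called at its brightest probe set, while 2 of its 3 probe sets were called lower, down to -0.91. HCC replicate 2, where Igf1 and Igfals were least reduced, also had the highest hepatocyte sum of the 3. The same array had the lowest level of the tumour marker Afp, 577 against 9199 and 7098. Its sum of proliferation markers was also lowest, 572 against 1709 and 1496, while the tumour marker Gstp1, at 8430, lay between 9755 and 7696. Among non-parenchymal markers, the sum of 6 Kupffer cell markers was 1059 to 1539 in HCC against 3218 to 6895 in control, with 3 of 6 called lower, and that of 6 endothelial markers was 618 to 1371 against 2795 to 3174, with 4 of 6 called lower. Of 10 stellate cell markers 5 were called higher and 1 lower, with sums of 3635 to 6349 in HCC and 2676 to 3416 in control, and Lrat was under 16 on all HCC arrays. Of 5 proliferation markers 4 were called higher, with sums of 572 to 1709 in HCC against 180 to 365 in control. Of 6 lymphocyte markers 2 were called higher (Cd3e and Cd3g), 1 of 5 cholangiocyte markers was called higher, and of 3 tumour markers Afp and Gstp1 were called higher, at 4.72 and 4.58. All 4 erythroid markers were called lower in HCC and in cirrhosis, with sums of 871 to 1844 in cirrhosis and 436 to 542 in HCC against 4259 to 6403 in control, and 1 of 4 was called lower in hepatitis. Gstp1 was also called higher in hepatitis and cirrhosis, at 2.04 and 4.03. No marker of hepatocytes, Kupffer, endothelial, stellate, bile duct, lymphoid, muscle or proliferating cells was called in hepatitis or cirrhosis against control by limma. Of all genes only 3.73% and 3.64% were called there. Cholangiocyte sums still lay above control, 341 to 1027 in hepatitis and 597 to 694 in cirrhosis against 247 to 269. Hepatocyte sums lay above control in hepatitis and endothelial sums below it in cirrhosis. The other sums of these cell types overlapped control. The part of these shifts, and of the 3′ over 5′ ratio, in the results for the axis was not tested.

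Of 5 other ligands and receptors measured, Igf2 was called higher and the leptin receptor Lepr lower in HCC against control. Counts below take 1 probe set per gene, and of 14217 genes 3.73% were called in hepatitis against control (1.72% higher, 2% lower), 3.64% in cirrhosis (1.65% higher, 1.99% lower) and 37.4% in HCC (19.1% higher, 18.3% lower). Igf2, the fetal growth factor of the liver, measured 9839, 2343 and 12790 at probe set 1367571_a_at in HCC against 47.1, 44.4 and 41.0 in control, a difference of 6.80 ± 0.50 (log2, SE; adjusted p = 4.16e-05, limma). All 3 HCC arrays lay far above the other 9, which measured 27.6 to 47.1. It was the 1 of 4 Igf2 probe sets called, and the other three measured 12.6 to 25.6 on all arrays. Lepr, which like Ghr is a cytokine receptor that signals through Jak2, measured 175, 106 and 121 in control, 26.8, 27.5 and 42.7 in hepatitis, 24.2, 42.4 and 33.7 in cirrhosis and 16.2, 15.2 and 20.1 in HCC, with all controls above all other arrays. It was called lower in all 3 stages, at -1.62, -1.59 and -2.16 from hepatitis to HCC (adjusted p = 0.0035, 0.0052 and 9.62e-05, limma), by 3, 3 and 4 of its 7 probe sets. Insr and Insrr were called in no comparison, and the prolactin receptor Prlr was called lower in HCC than in hepatitis, at -1.92 (adjusted p = 0.0418) and by 2 of 3 probe sets. In hepatitis against control 1 of its 3 probe sets was called higher, at 1.58.

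Of 6 other IGF binding proteins, 1 was called higher and 1 lower in HCC against control, where 19.1% of all genes were called higher and 18.3% lower. Igfbp5, a binding protein held in the matrix, measured 213, 103 and 184 in HCC against 10.9, 25.0 and 12.7 in control, at 2.48 ± 0.27 (log2, SE; adjusted p = 0.000214, limma) and by 3 of 5 probe sets. Igfbp4, which binds Igf1 without the acid labile subunit, was lower by 0.49 on the log2 scale (adjusted p = 0.0191). In cirrhosis Igfbp1, the binding protein that insulin suppresses, measured 880, 816 and 526 against 3021, 4117 and 3571 in control, at -2.27 ± 0.53 (adjusted p = 0.0496). Its HCC values, 4380, 1159 and 1553, overlapped the controls and were not called.

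**Figure D4:**
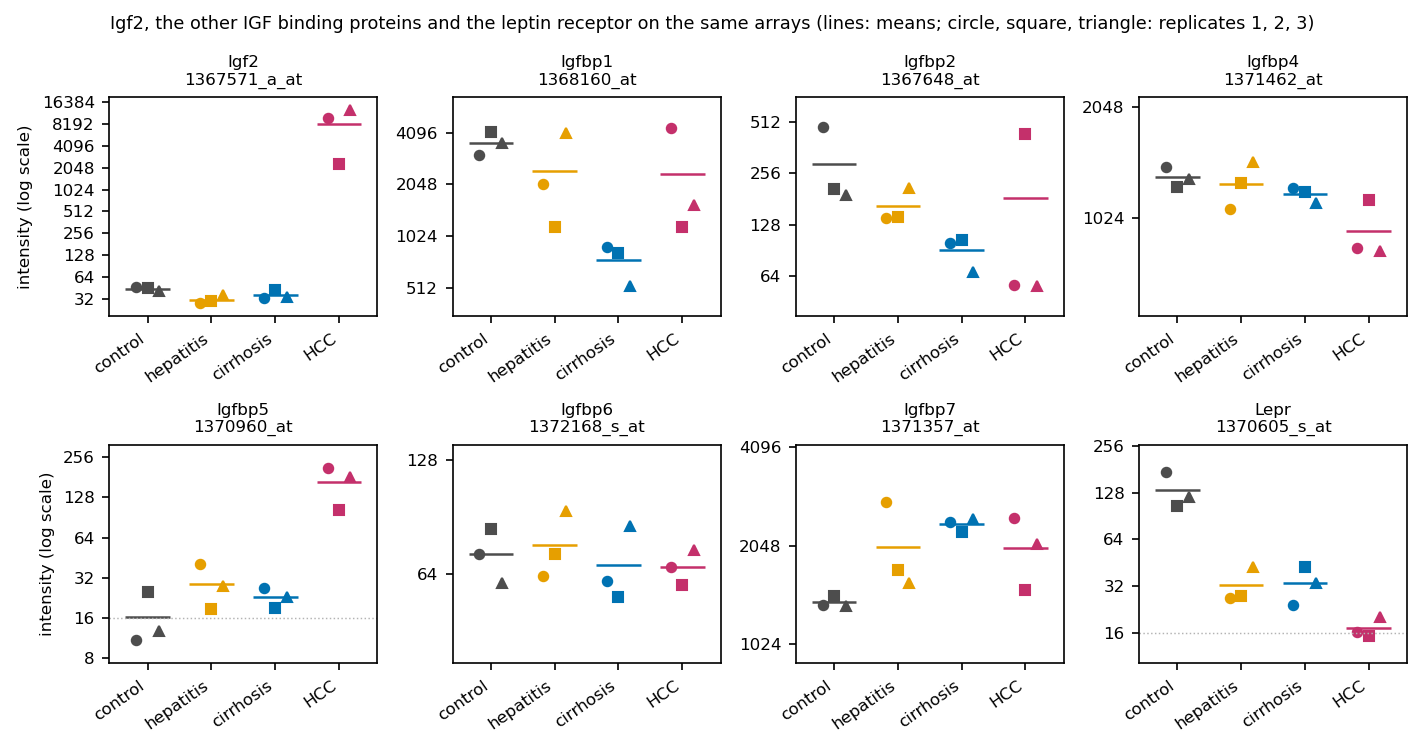
Intensity (log axis) of Igf2, 6 other IGF binding proteins and Lepr on the 12 arrays by stage, 1 probe set per gene, with a line at each mean. Igf2 lies at 2343 to 12790 in HCC and at 27.6 to 47.1 on the other 9 arrays, Igfbp1 is lowest in cirrhosis, and Lepr is lower at each stage than in control.

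Inside the cell, of 9 measured genes of the Jak and Stat list 0 were called in hepatitis and 0 in cirrhosis against control by limma, and in HCC 2 were higher (Sh2b1, an adaptor of Jak2, at 0.53, and Stat6 at 0.37) and 1 lower (the kinase Tyk2 at -0.23). These 3 of 9 are near the share of all genes called in HCC against control, 37.4%. The HCC counts of the lists below are to be read against the same share. Other probe sets of the kinases Jak1 and Lyn, 1 of 2 each, were called lower in HCC, at -1.20 and -0.60, while their brightest ones were not. Jak2 itself was called in no comparison. Of 12 inhibitors of cytokine signalling, 3 were called higher in hepatitis than in control: Pias3, which blocks Stat3, at 1.11, Socs5 at 0.55, and Socs3, the inhibitor induced by interleukin 6, at 0.23. Pias3 measured 277, 184 and 210 in hepatitis against 94.1, 106 and 82.0 in control. Only Socs5 was called in cirrhosis against control, at 0.51. In HCC 4 were higher, led by the phosphatase Ptpn2 at 0.69 and Socs7 at 0.66, and 2 were lower, the phosphatase Ptpn11 at -0.54 and the adaptor Sh2b3 at -0.45. Ptpn11 has no settled direction, since its other probe set was called higher, at 0.35. Downstream of the insulin and Igf1 receptors, 0 of 15 measured genes were called in hepatitis and 0 in cirrhosis against control by limma. In HCC the adaptor Shc1 was higher, at 0.56, and 4 were lower, led by the adaptor Grb14 at -1.06, the transcription factor Foxo3 at -0.61 and the kinase subunit Pik3r1 at -0.57. Together these calls among 15 genes are also near the share of all genes called. Of 7 measured genes of stanniocalcins and of proteases of IGF binding proteins, 0 were called in hepatitis and 0 in cirrhosis against control by limma. In HCC the protease genes Htra1 (-2.03), Adamts1 (-1.15) and Ctsd (-1.06) were lower and the stanniocalcin gene Stc1 (0.54) was higher. Of the genes named here, Sh2b1 and Socs5 rested on 1 of 2 probe sets and Foxo3 and Stc1 on 1 of 3.

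Genes that growth hormone is known to control in rat liver gave different counts by stage. Of 14 measured, 3 were called higher in hepatitis and 3 in cirrhosis against control, Obp3, Mup5 and the female-biased Cyp3a9 in each. Obp3 measured 9.92, 12.6 and 10.6 in control, 288, 217 and 75.4 in hepatitis, 4003, 1917 and 4611 in cirrhosis and 20.8, 148 and 26.8 in HCC, and control, hepatitis and cirrhosis did not overlap. Obp3 and Mup5 belong to a family of near-identical genes, so signal may be shared between them. Of 3 Mup5 probe sets 1 was called in hepatitis, 3 in cirrhosis and 1 in HCC, and of 2 Obp3 probe sets 1 was called in hepatitis and 2 in cirrhosis. In HCC 5 were called lower than in control, led by the male-specific Cyp2c11, a steroid hydroxylase, at -3.40, and by Cyp3a18, Cyp2c13 and Cyp3a2 at -3.27, -2.61 and -2.58, and 1 was higher, Mup5 at 1.05. Cyp2c11 measured 1861, 3551 and 2953 in control, 883, 1475 and 313 in hepatitis, 4511, 3907 and 4795 in cirrhosis, and 115, 536 and 217 in HCC. Like Ghr 1373803_a_at and Igfals, its mean was highest in cirrhosis and lowest in HCC, and in cirrhosis against control it was not called. Cyp2a2, Cyp3a18 and Onecut1 had the same highest and lowest stages. Cyp2c13, Cyp3a2 and Cyp2c12 were highest in control instead, at -0.02, -0.09 and -0.43 in cirrhosis against control, none called. The other listed genes had other highest or lowest stages. In HCC against cirrhosis 10 of 14 were called lower and 0 higher in limma, where 36.9% of genes were called (17.6% lower, 19.3% higher). The median difference of the 14 from control was 0.19 in hepatitis, 0.53 in cirrhosis and -1.27 in HCC, and that of all genes lay within 0.01 of 0. Of 8 pituitary and hypothalamic genes, 0 were called in any comparison in limma, and Gh1, the hormone's own gene, measured 16.6 to 24.7 on the 12 arrays.

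The genes whose profiles were most like those of the members were found by the root mean square difference over the 12 arrays between log2 profiles, each relative to its own control mean. For Ghr 1373803_a_at these were Adhfe1 (0.221), Pxmp2 (0.248) and Bphl (0.249). Adhfe1 measured 89.0, 319 and 146 in HCC against 814, 867 and 827 in control. For Igf1 1382599_at they were Ang (0.161), Rarres2 (0.173) and Ptprd (0.208), for 1370333_a_at Nt5e, C8b and Il1rap (0.204 to 0.247), and for 1388469_at Slco1a1, Mbl2 and Slco1b2 (0.242 to 0.292). Igfals was nearest Dpys, Pon1 and Ptprd (0.277 to 0.328), and among members Igfals and Ghr 1373803_a_at were each nearest Igf1 1382599_at, at 0.399 and 0.435. Ghr 1368924_at was nearest Atl3, Ogn and Crem (0.194 to 0.211), Socs2 nearest Veph1, Irs3 and Kat2b (0.189 to 0.217), Igf2r 1386872_at nearest Slc41a3, Sri and Gem (0.0914 to 0.201), and Igfbp3 1386881_at nearest Tkt, Polr1d and Pgd (0.231 to 0.26). Bcl6 had no gene nearer than Tbc1d31, at 0.589.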

How the data were processed

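RNA of 12 rat liver or HCC samples was measured on single-colour arrays, 3 for each of 4 groups taken from the labels. The authors deposited linear intensities, 1 per probe set and array. MAS5 and RMA are named in the submitters' processing notes, but which of them made the values, and in which version, is not given here. All 12 columns were used and 0 left out. Of 31099 probe sets 57 were array controls. Of the other 31042, 20826 had 1 gene in the platform annotation (symbols updated from RefSeq, GRCr8), 436 several and 9780 none; no member probe set was shared with another gene. Array number limits precision.

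The log2(value + 16) values of all 12 arrays were fitted with limma 3.58.1 (lmFit, eBayes) in R 4.3.3, with 4 groups, 6 two-sided contrasts and a moderated F test. The prior degrees of freedom were 1.6, and 1 spread per probe set served all groups, although the median SD was 0.144 in HCC against 0.0652 to 0.0804 elsewhere. Errors on log2 differences are standard errors. The fit was run on simulated data with the same spread in every group, so that run cannot check how the unequal spread affects the calls. Pathway and marker genes are given by their probe set of highest mean. Named genes are all members, up to 4 called genes per list and comparison by size of difference, and for Ghr, Igf1, Igfals and members with a range of group means of at least 1 the 3 genes nearest in profile; other pathway and marker genes, and those that check the labels, were named after their values were seen. Members and lists were chosen with earlier results of these data known. Replicates of a group were not identical arrays (r across probe sets 0.951 to 0.997). Alternatives were other added constants (1 and 64), the dimmest 30% left out, quantile normalization, 1 value per gene, other variance models, the replicate block, and each array left out. Tables used pandas 2.3.3 and numpy 2.4.6, and figures matplotlib 3.10.9, all under Python 3.11.15.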

Additional observations from a re-analysis of the deposited data

How the results depend on the processing

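Each of the 24 member differences called had a value in 21 or 22 of the 23 other settings. Of the 24, 12 were called in every setting that gave them a value, 12 lost the call in at least 1, and 0 changed sign. Counts of called member probe sets out of 17 moved as follows. With each array left out in turn they were 0 to 1 in hepatitis against control (0 with all arrays), 0 to 2 in cirrhosis against control (1), 8 to 10 in HCC against control (8), 0 to 1 in cirrhosis against hepatitis (0), 4 to 8 in HCC against hepatitis (7), 8 to 9 in HCC against cirrhosis (8), and 7 to 9 in the F test (9). In brackets below are the calls over all 31042 probe sets in the same setting. Fitting only the 2 groups compared gave 6 in cirrhosis against control (4949) and 4 in HCC against control (4994). It gave 2 in cirrhosis against hepatitis (466) and 2 in HCC against hepatitis (3793). Weights by group gave 3 in cirrhosis against control (4212) and 1 in cirrhosis against hepatitis (1118). A trended robust prior gave 1 in cirrhosis against hepatitis (222). Leaving out all HCC arrays was a setting chosen after seeing the data. It gave 2 in hepatitis against control (3113), 4 in cirrhosis against control (3314) and 4 in cirrhosis against hepatitis (1094). With 1 value per gene the counts are of 10 genes, and those in brackets are of all 14217 genes. The brightest probe set gave 0 in cirrhosis against control (474) and 5 in HCC against control (5512). It gave 3 in HCC against hepatitis (4972) and 5 in HCC against cirrhosis (5278). The mean of a gene's probe sets gave 0, 4, 3 and 5 in the same order (468, 5512, 5010 and 5365), and 5 in the F test. Some of these settings also had fewer features or samples per fit, and the cause of the shifts was not tested.

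Over all 31042 probe sets, calls in hepatitis against control numbered 916 with all arrays, 297 to 1652 with 1 array left out, 2620 with weights by group and 3113 without the HCC arrays. In cirrhosis against control they numbered 1125, 194 to 1884, 4212 and 3314 in the same order, 4949 with only the 2 groups fitted and 717 with the replicate block. In cirrhosis against hepatitis they numbered 202, 63 to 439, 1118 and 1094, and 466 and 133 in these further settings. Fitting only the 2 groups also gave 4994 instead of 9237 in HCC against control, 3793 instead of 8990 in HCC against hepatitis and 6499 instead of 10008 in HCC against cirrhosis. Arrays with the same replicate number did not in general deviate together (correlations -0.225 to 0.34, over 0.1 in 2 of 18 pairs). The highest, 0.34, was between hepatitis and HCC replicate 1, and pairs with different numbers had correlations of -0.307 to 0.188. With so few arrays per group, these correlations cannot show whether the numbers pair the samples. With the replicate number as a block the counts of called members were 0, 1, 8, 0, 7 and 8 in the order of comparisons given first, and 8 in the F test. Probe sets near or under 16 (Igf1r, Socs2, Cish 1388233_at, Ghr 1368924_at in HCC) lie in the range where the added constant sets the size of a difference.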
